A study of Arabidopsis thaliana with 18 samples.

Results

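Between the last closed bud and the newly open flower, 127 of the 22746 probe sets tested on the ATH1 array (0.56%) fell at least 2-fold in wild-type *Arabidopsis thaliana* without falling in the *myb21-5 myb24-5* mutant or in *arf6-2 arf8-3*. They were chosen on these same arrays. In wild type the stage 13 mean lay at least 1 log2 unit below the stage 12 mean, with every stage 13 array below every stage 12 array. In each mutant the stage 13 mean was allowed to lie no more than 0.4 log2 units below the stage 12 mean. Of 462 probe sets that met the wild-type condition, 152 did not fall in *arf6-2 arf8-3* and 185 did not fall in *myb21-5 myb24-5*, and 127 did neither. The label "not switched off in both mutants" describes few of these genes in *arf6-2 arf8-3*. There, 102 of the 127 (80.3%) were already nearer the low level of open wild-type flowers in closed buds and stayed there. In *myb21-5 myb24-5*, 62 stayed nearer the bud level at both stages.

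Whole flowers of the Columbia ecotype were sampled at stage 12, the largest closed bud, and stage 13, the first open flower, as 3 biological replicates (A, B and C) of each genotype and stage, on 18 arrays. The *arf6-2 arf8-3* plants lack the auxin response factors ARF6 and ARF8. In *myb21-5 myb24-5*, *myb21-5* has a stop codon in its coding sequence and *myb24-5* carries a T-DNA insertion in an intron, and the probe sets of both genes still gave signal. The labels name no treatment. Mutant flowers do not open normally, and for its flower measurements the study matched them to wild-type stages by size and place on the stem. How the mutant flowers on the arrays were staged was not given separately.

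ARF6 and ARF8 are transcription factors that switch on auxin-responsive genes and the synthesis of the hormone jasmonate as the flower matures. Jasmonate is made from plastid fatty acids through 13-lipoxygenases, and it acts by removing JAZ repressors. MYB21 and MYB24, closely related transcription factors expressed downstream of jasmonate, are needed for petals and stamen filaments to elongate. At this time pollen completes its maturation and the anthers open to release it. A flower is a mixture of organs, and in such samples fewer cells of a type and less RNA per cell cannot be told apart.

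All values are log2 expression values, and array medians lay between 7.71 and 7.78. Among the 3 stage 13 arrays labelled as *myb21-5 myb24-5*, replicate A stood apart from B and C. Over all probe sets its differences from *arf6-2 arf8-3* stage 13 replicate A had an SD of 0.121, the smallest of all 153 pairs of arrays, against 0.538 and 0.551 from its own replicates B and C. *ARF6* read 4.75 on it, within the 4.73 to 5.27 of *arf6-2 arf8-3* at that stage and far below the 9.21 and 9.48 of replicates B and C. On it every one of the 127 members lay within 0.3 of the range of *arf6-2 arf8-3* stage 13, and 105 lay below both B and C. The choice of members and all *myb21-5 myb24-5* stage 13 means use B and C (n = 2), and counts of members called with the array included are given below. Of the tissue markers, the nectary genes *CRC*, *SWEET9* and *CWINV4* read 9.71, 10.81 and 11.30 in wild-type buds, 8.39, 6.11 and 8.3 in *arf6-2 arf8-3* buds and 9.86, 6.09 and 9.49 in *myb21-5 myb24-5* buds. Each was lower in *arf6-2 arf8-3* buds, and *SWEET9* and *CWINV4* also in *myb21-5 myb24-5* buds, where *CRC* was near wild type. In the same order of genotypes, bud means were 13.53, 13.80 and 13.59 for the photosynthesis gene *RCA*. For the tapetum gene *AMS* they were 4.48, 5.92 and 5.37, with ranges that overlapped wild type in both mutants. The part of these markers in the levels of the members was not tested. Markers of floral organ identity were not analysed here.

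Gene names came from the platform table for 63 members, and a further 41 were named only through tables that the study chose on these arrays for a stage 12 difference. The other 23 have no name here. The wild-type fall ranged from 2.00-fold to 11-fold, with a median of 2.52-fold. The change from stage 12 to 13 ranged from −0.39 to 0.90 in *arf6-2 arf8-3* (median −0.01) and from −0.38 to 1.47 in *myb21-5 myb24-5* (median 0.15). Over all probe sets these medians were −0.01 and 0.03. Just inside the wild-type bound lay *PLIM2c*, with a change of −1.01, and just outside it *AT1G31550*, at −0.998. At the *arf6-2 arf8-3* bound, *AT1G17430* was inside at −0.394 and *LAC1* outside at −0.408, and at the *myb21-5 myb24-5* bound *AT1G51915* was inside at −0.382 and *MUB5* outside at −0.428.

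Each mutant mean was placed between the wild-type stage 13 mean, set to 0, and the wild-type stage 12 mean, set to 1. The median member lay at 0.138 in *arf6-2 arf8-3* at stage 12 and at 0.132 at stage 13. The choice of members bounded the fall between these stages in each mutant, so nothing is read from the closeness of these medians. The study reports that flowers of this mutant stay closed, and the part of this in the levels was not tested. In *myb21-5 myb24-5* the median member lay at 0.548 in buds and at 0.695 at stage 13. With the midpoint as the dividing level, 102 members were low at both stages in *arf6-2 arf8-3*, 18 were high at both, 4 had means that passed it upwards and 3 downwards, with no test of the change. In *myb21-5 myb24-5*, 62 were high at both stages, 32 passed the midpoint upwards, 22 were low at both and 11 passed it downwards. The division is one of degree, since 63 members had at least 1 of these 4 means within 0.1 of the wild-type fall from the midpoint. The largest combinations were low in *arf6-2 arf8-3* with high in *myb21-5 myb24-5* (40 members), low with passing upwards (29), low in both (22), high in both (17) and low with passing downwards (11). With the array set aside included, 53 members rather than 62 were high at both stages in *myb21-5 myb24-5*, and without *arf6-2 arf8-3* stage 12 replicate B, 89 rather than 102 were low at both stages in that mutant.

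**Figure D1:**
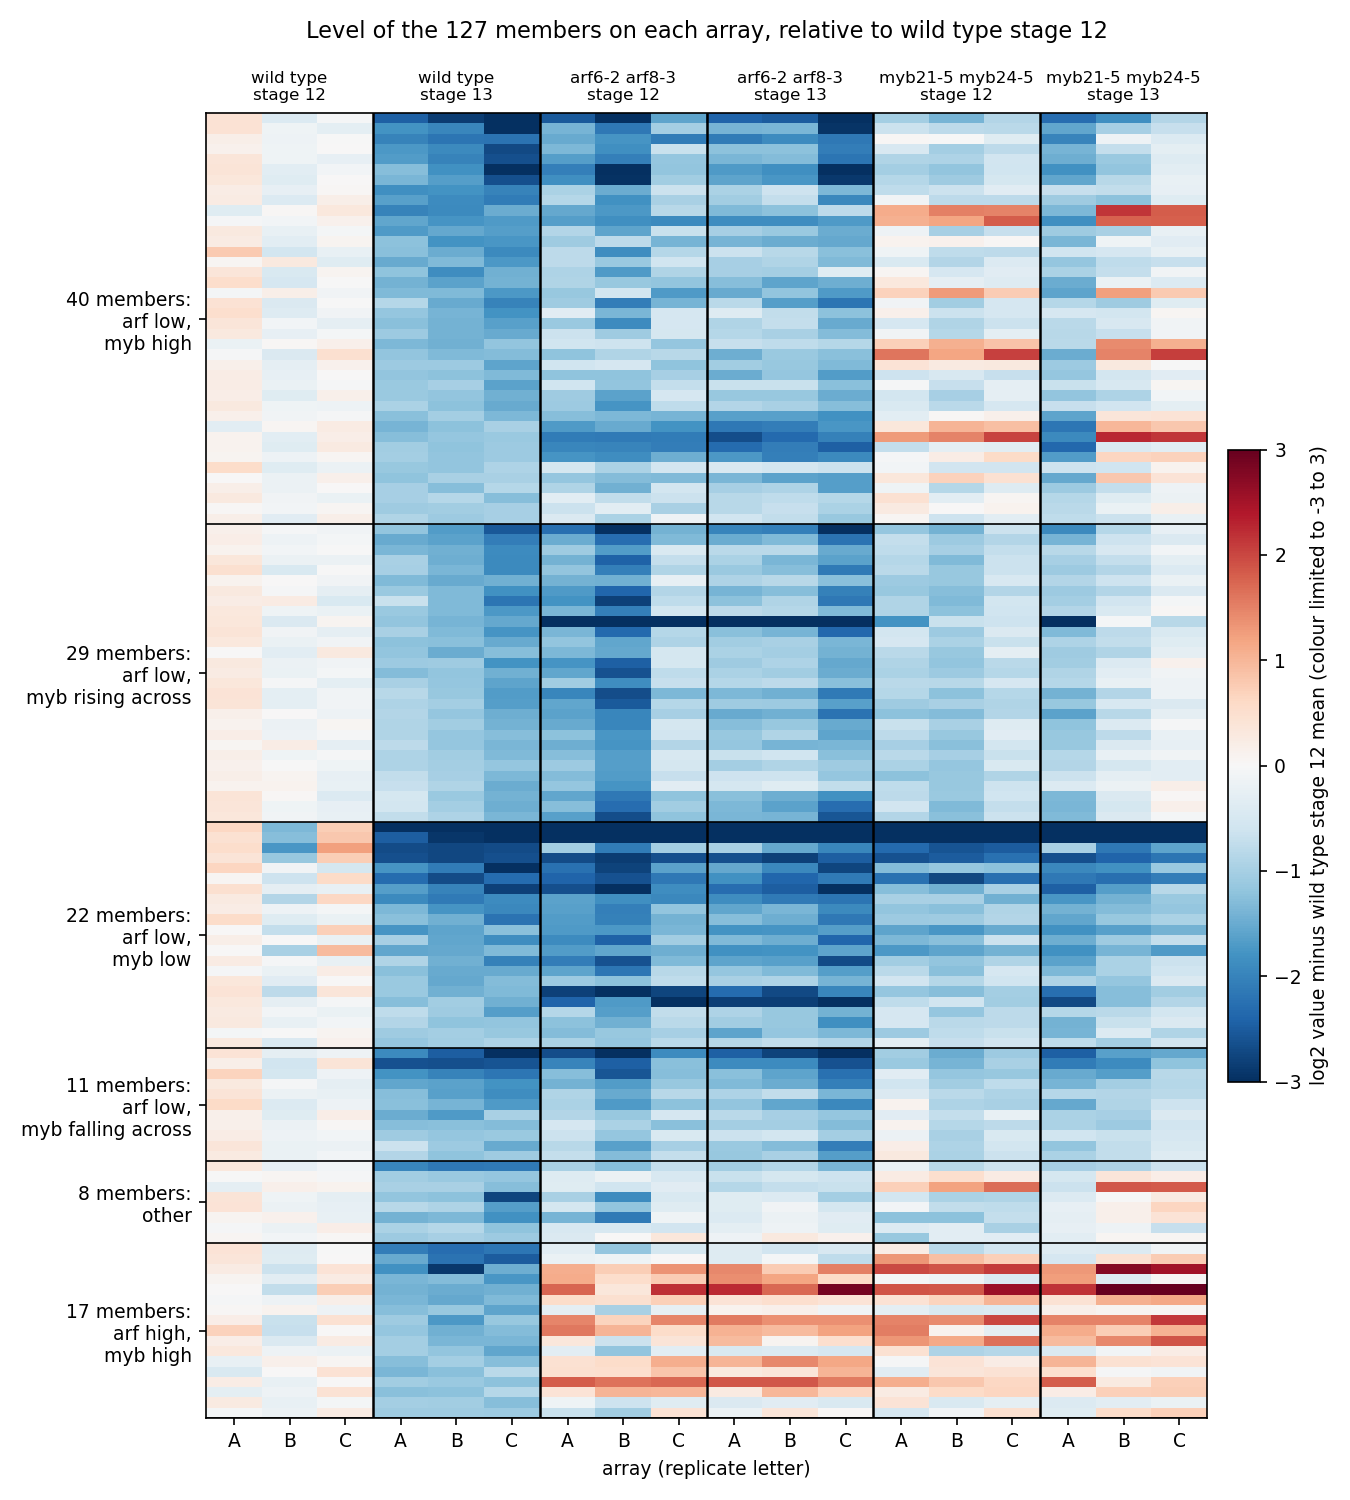
Log2 value of each of the 127 members (rows, grouped by where each mutant mean lies against the wild-type midpoint) on each of the 18 arrays (columns), minus the member's wild-type stage 12 mean; blue is lower and red higher, with the colour limited to −3 to 3. Most rows are as blue in the 6 *arf6-2 arf8-3* columns as in wild type stage 13, paler in *myb21-5 myb24-5*, and column A of *myb21-5 myb24-5* stage 13, which was set aside, resembles *arf6-2 arf8-3*.

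The members with the clearest difference between the mutants include genes of jasmonate synthesis and signalling. *LOX4*, a 13-lipoxygenase at the start of jasmonate synthesis, read 7.67, 7.63 and 7.84 in wild-type buds and 6.14, 5.93 and 6.01 in open flowers. In *arf6-2 arf8-3* it read 6.05, 5.87 and 5.8 in buds and 5.85, 5.86 and 6.0 at stage 13. In *myb21-5 myb24-5* it read 8.78, 8.90 and 9.54 in buds and 9.48 and 9.51 at stage 13. The mutants thus held *LOX4* at opposite ends, at the level of the open wild-type flower in one and above every wild-type bud in the other, with no overlap between them. *LOX4* was 8.96-fold lower in *arf6-2 arf8-3* than in *myb21-5 myb24-5* at stage 12 (−3.16 ± 0.15 log2, SE; limma, adjusted p = 1.03e-08) and 12.1-fold lower at stage 13 (−3.59 ± 0.17; adjusted p = 7.1e-09).

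*LOX3*, a second 13-lipoxygenase that acts with *LOX4* in stamen development, behaved alike in *myb21-5 myb24-5* and less so in *arf6-2 arf8-3*. Wild-type buds gave 8.01, 8.43 and 8.39 and open flowers 7.31, 7.30 and 6.99. It read 7.92, 7.68 and 7.94 in *arf6-2 arf8-3* buds, between the wild-type stages, and 7.42, 7.56 and 7.61 at stage 13. The *myb21-5 myb24-5* values were 9.0, 9.48 and 9.96 in buds and 10.14 and 10.11 at stage 13, all above wild type. The difference between the mutants was −1.63 ± 0.19 at stage 12 (limma, adjusted p = 6.65e-05) and −2.60 ± 0.21 at stage 13 (adjusted p = 1.62e-06).

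*JAZ3*, a repressor of jasmonate responses, read 10.29, 10.10 and 10.42 in wild-type buds and 9.06, 9.31 and 9.31 in open flowers. In *arf6-2 arf8-3* all 6 arrays lay between 8.62 and 9.10. In *myb21-5 myb24-5* the buds gave 10.62, 10.95 and 10.72 and stage 13 gave 11.07 and 10.68. Every *myb21-5 myb24-5* array used was therefore above every wild-type bud, and the mutants differed by −1.76 ± 0.13 at stage 12 (limma, adjusted p = 7.9e-07) and by −2.15 ± 0.14 at stage 13 (adjusted p = 2.38e-07).

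*MYB24* itself was a member. It read 10.24, 9.47 and 9.99 in wild-type buds and 8.73, 8.5 and 8.37 in open flowers. In *arf6-2 arf8-3* all 6 arrays lay between 3.67 and 4.25, the largest shortfall of any named member in buds, 61.6-fold below wild type. In *myb21-5 myb24-5*, where its gene is the mutated one, the probe set still read 8.10, 9.23 and 9.29 in buds and 9.85 and 9.07 at stage 13. Which part of the transcript the probes cover against the insertion was not analysed here, and the values say nothing of the protein. The mutants differed by 30.2-fold at stage 12 (−4.92 ± 0.30; limma, adjusted p = 1.19e-07) and 43.1-fold at stage 13 (−5.43 ± 0.33; adjusted p = 1.03e-07).

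Of the 25 probe sets of the jasmonate list that could be named, 5 met the wild-type condition and 4 of these were members (*LOX3*, *LOX4*, *JAZ3* and *MYB24*). All 4 were named through the study's tables, as were 21 of the 25, so their share is not independent evidence. Across the list 20 probe sets were called lower in *arf6-2 arf8-3* than in *myb21-5 myb24-5* at stage 12 and 22 at stage 13, beside 1.57% and 2.8% of all probe sets, and none was called higher. Since most of the list was named through tables chosen for stage 12 differences, nothing is read from these counts. The list medians were −1.76 and −2.15, against 0.02 and −0.01 over all probe sets.

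**Figure D2:**
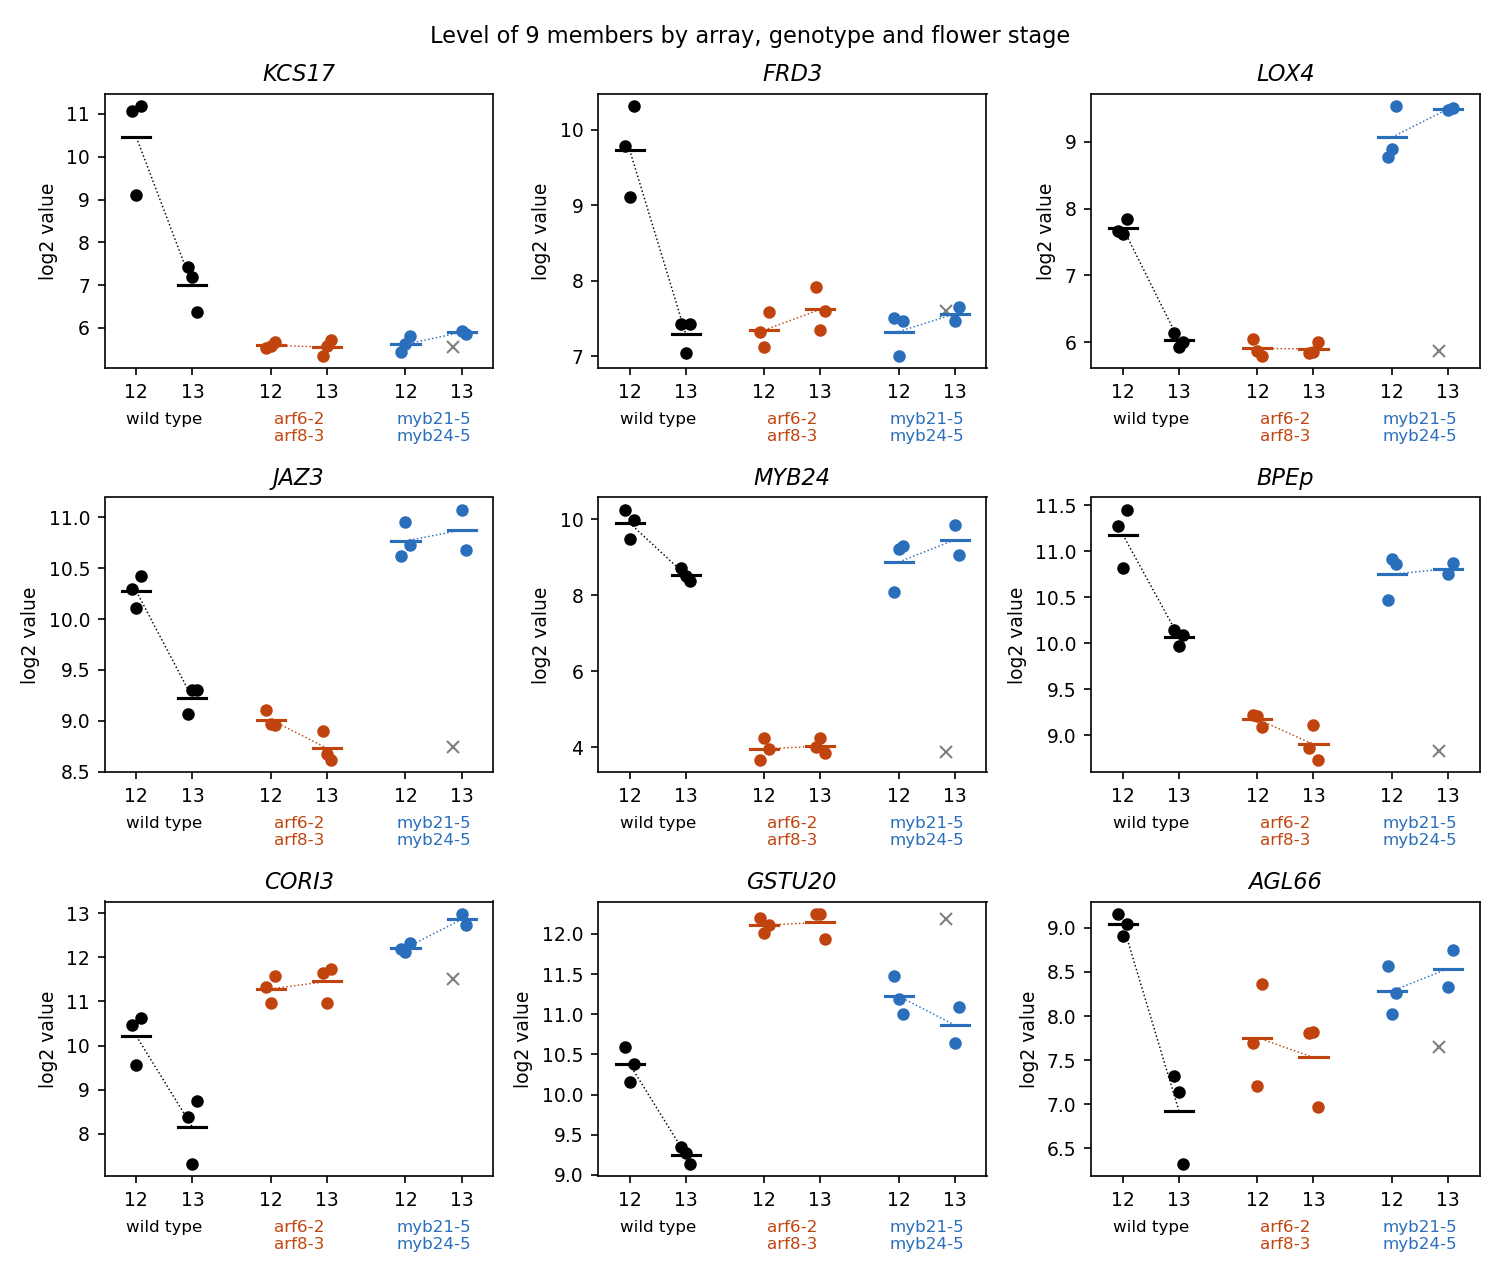
Log2 value on each array (points), with the mean of the arrays used (bars) and a dotted line between stage 12 and stage 13, for 9 members, by genotype; each panel has its own y axis, and grey crosses mark the array of *myb21-5 myb24-5* stage 13 that was set aside. Wild type falls in every panel. *LOX4*, *JAZ3* and *BPEp* are low in *arf6-2 arf8-3* and high in *myb21-5 myb24-5*. *MYB24* is low in *arf6-2 arf8-3*, and its mean passes the wild-type midpoint upwards in *myb21-5 myb24-5*, where it is mutated. *KCS17* and *FRD3* are low in both mutants, and *CORI3* and *GSTU20* are above wild type in both.

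The pattern of *LOX4*, low in one mutant and above wild-type buds in the other, was shared by members of other families. *AT1G06620*, annotated as an oxoglutarate-dependent dioxygenase, read 7.85, 7.44 and 7.95 in wild-type buds and 6.46, 6.60 and 6.63 in open flowers. In *arf6-2 arf8-3* it lay between 5.09 and 5.71 on all 6 arrays, and in *myb21-5 myb24-5* it read 9.02, 9.23 and 9.78 in buds and 10.02 and 9.89 at stage 13. The mutants were 13.0-fold apart at stage 12 (−3.70 ± 0.19; limma, adjusted p = 1.32e-08) and 23.3-fold apart at stage 13 (−4.54 ± 0.21; adjusted p = 5.68e-09). *GolS1*, which encodes galactinol synthase of the raffinose sugar pathway, read 9.35, 9.75 and 10.03 in wild-type buds and 7.72, 7.81 and 8.22 in open flowers. It lay between 7.99 and 8.93 in *arf6-2 arf8-3* and between 10.83 and 11.85 on the *myb21-5 myb24-5* arrays used, a difference of 6.65-fold at stage 12 (−2.73 ± 0.24; limma, adjusted p = 4.19e-06) and 8.5-fold at stage 13 (−3.09 ± 0.27; adjusted p = 2.56e-06). *AT4G17470*, a putative palmitoyl protein thioesterase, ranged from 5.66 to 6.31 in *arf6-2 arf8-3* and from 8.32 to 9.22 in *myb21-5 myb24-5*, where wild-type buds gave 7.09, 6.71 and 7.61. The mutants differed by −2.59 ± 0.24 at stage 12 (limma, adjusted p = 6.22e-06) and by −3.07 ± 0.26 at stage 13 (adjusted p = 2.53e-06).

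In other genes with a called difference between the mutants, *myb21-5 myb24-5* buds lay within or close to the range of wild-type buds. *BPEp*, whose gene BIGPETAL encodes a bHLH factor that limits petal cell size, read 11.28, 10.82 and 11.45 in wild-type buds and 10.15, 9.97 and 10.09 in open flowers. It lay between 8.74 and 9.23 in *arf6-2 arf8-3*, below every open wild-type flower, and between 10.47 and 10.92 in *myb21-5 myb24-5*. The mutants differed by −1.57 ± 0.16 at stage 12 (limma, adjusted p = 1.49e-05) and −1.91 ± 0.17 at stage 13 (adjusted p = 4.33e-06). *GASA4*, a small gibberellin-regulated cysteine-rich protein, read 13.53, 13.29 and 13.34 in wild-type buds and 12.14, 12.36 and 12.04 in open flowers. Its *arf6-2 arf8-3* values were 12.11, 12.04 and 12.00 in buds and 11.76, 11.75 and 11.57 at stage 13, and its *myb21-5 myb24-5* values 13.06, 13.42 and 13.55 and then 13.75 and 13.79, the last 2 above every wild-type bud. At stage 12 it differed between the mutants by −1.29 ± 0.12 (limma, adjusted p = 8.74e-06). *GATA2*, a zinc finger transcription factor of light-regulated growth, differed by −1.69 ± 0.15 (adjusted p = 5.83e-06).

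A further set of members has known roles in pollen. The pollen list covered only 15 measured probe sets, and any members outside it with such roles were not counted. *AGL66*, a MADS-box factor of pollen maturation, read 9.16, 8.91 and 9.05 in wild-type buds and 7.32, 7.13 and 6.33 in open flowers. In *arf6-2 arf8-3* it read 7.70, 7.20 and 8.36 in buds and 7.81, 7.82 and 6.96 at stage 13, and in *myb21-5 myb24-5* it read 8.56, 8.03 and 8.26 in buds and 8.32 and 8.75 at stage 13. Both mutants thus lay below wild-type buds on every array used. The difference between the mutants was not called at stage 12 (−0.53 ± 0.31; limma, adjusted p = 0.398) or stage 13 (−1.01 ± 0.35; adjusted p = 0.0724). *CNGC18*, a calcium channel of the pollen tube tip, read 8.17, 7.62 and 7.56 in wild-type buds against 6.87, 6.28 and 6.94 in *arf6-2 arf8-3* buds and 7.35, 6.98 and 6.86 in *myb21-5 myb24-5* buds. *ACT4*, an actin of pollen, had means of 9.98 in wild-type buds, 8.83 in *arf6-2 arf8-3* buds and 9.55 in *myb21-5 myb24-5* buds, and the ranges of wild type and *myb21-5 myb24-5* overlapped. These 3 were the members among the 15 measured probe sets of the pollen list, of which 7 met the wild-type condition. Among all 22746 probe sets, 462 met that condition and 127 were members. *CNGC18* and *ACT4* were named only through tables that the study chose for stage 12 differences, so nothing is read from this share.

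Among pollen genes noticed after their values were seen, *PLIM2c*, which bundles actin in pollen tubes, and *AT1G24620*, a putative polcalcin, lay across the midpoint at stage 13 in *myb21-5 myb24-5*. Their wild-type falls, −1.01 ± 0.36 for *PLIM2c* and −1.01 ± 0.35 for *AT1G24620*, were not called (limma, adjusted p = 0.106 and 0.0948). *PLIM2c* read 9.55, 9.17 and 9.79 in *myb21-5 myb24-5* buds and 9.98 and 10.37 at stage 13, and 8.80, 7.76 and 9.23 and then 9.04, 9.03 and 7.86 in *arf6-2 arf8-3*. At stage 13 the difference of *arf6-2 arf8-3* from *myb21-5 myb24-5* was −1.53 ± 0.40 for *PLIM2c* (limma, adjusted p = 0.0213) and −1.56 ± 0.39 for *AT1G24620* (adjusted p = 0.0168). Markers of pollen also differed between the groups, and not all in 1 direction. Over the 5 measured pollen markers that were not members, of 7 on the list, the summed linear level per array was 2395 to 3376 in wild-type buds, 1727 to 2170.1 in open flowers, 1356 to 1548 and 981 to 1431 in *arf6-2 arf8-3* at stages 12 and 13, 1389 to 2350 in *myb21-5 myb24-5* buds, and 1686 and 2028 at stage 13. *ACT11* took the largest part of this sum in wild-type buds, with means of 10.63 and 10.14 in wild type at stages 12 and 13, 9.67 and 9.04 in *arf6-2 arf8-3*, and 9.81 and 9.26 in *myb21-5 myb24-5*. Between the stages *ANX2* went the other way, with means of 8.41 and 8.82, 7.27 and 8.67, and 7.11 and 9.32. In buds it was lower in both mutants than in wild type, as *ACT11* was. The mean of *ANX1* fell in wild type (7.22 and 6.29) and rose in *arf6-2 arf8-3* (6.39 and 6.78) and *myb21-5 myb24-5* (6.36 and 7.30). That of *AGL104* fell in every genotype, and that of *ACT12* in wild type and *arf6-2 arf8-3* only. *VGD1* was not analysed here. The part of pollen content in the levels of the members was not tested. Replicate B of *arf6-2 arf8-3* stage 12 was the lowest of its group over the members, with a median of −1.68 from the wild-type bud mean against −1.18 and −0.84 for A and C.

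In 22 members both mutants were nearer the open wild-type flower than the bud at both stages. *KCS17*, a condensing enzyme that elongates very long chain fatty acids, had the largest wild-type fall of all members. It read 11.08, 9.10 and 11.19 in wild-type buds and 7.42, 7.20 and 6.38 in open flowers. In *arf6-2 arf8-3* the 6 values lay between 5.35 and 5.72, and in *myb21-5 myb24-5* the 5 values lay between 5.44 and 5.94. Both mutants were thus below every wild-type array at either stage. *ABCG20*, an ABC transporter that takes part in suberin formation, read 9.93, 8.20 and 10.29 in wild-type buds and 7.01, 6.54 and 6.34 in open flowers, against 5.48 to 5.70 in *arf6-2 arf8-3* and 5.81 to 5.99 in *myb21-5 myb24-5*. *IMS2*, an enzyme of the isopropylmalate synthase family, read 7.65, 6.15 and 8.03 in wild-type buds. Open wild-type flowers (4.55 to 4.63), *arf6-2 arf8-3* (4.42 to 4.8) and *myb21-5 myb24-5* (4.67 to 5.08) all lay far below those buds.

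*FRD3*, a citrate exporter that keeps iron mobile, read 9.79, 9.10 and 10.31 in wild-type buds and 7.43, 7.05 and 7.43 in open flowers. It lay between 7.13 and 7.91 in *arf6-2 arf8-3* and between 7.01 and 7.66 in *myb21-5 myb24-5*, close to open wild-type flowers. *CYP705A33*, a cytochrome P450, and *LFY*, the floral meristem identity factor, which was noticed after its values were seen, were also low in both mutants. *LFY* read 6.25, 5.26 and 7.18 in wild-type buds and at most 4.92 on every other array used. The mutant means of *IMS2*, *CYP705A33* and *LFY* lay under 5.72, the lower quartile of all probe sets in wild-type buds. In *arf6-2 arf8-3* the means of *KCS17* and *ABCG20* also lay under it at both stages. Whether a fall could be seen at such levels was not tested. For *KCS17*, *ABCG20*, *IMS2*, *CYP705A33* and *LFY*, wild-type stage 12 replicate B gave the lowest of the bud values by 0.72 or more. *AT4G16146* separated from these in *myb21-5 myb24-5*, at 8.35, 8.23 and 8.47 in buds against 6.69, 6.26 and 6.74 in *arf6-2 arf8-3*.

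In 17 members the label held in both mutants, with means above the midpoint at both stages. *CORI3*, a coronatine- and jasmonate-inducible tyrosine aminotransferase relative, read 10.47, 9.57 and 10.61 in wild-type buds and 8.40, 7.33 and 8.75 in open flowers. In *arf6-2 arf8-3* it read 11.32, 10.96 and 11.57 in buds and 11.65, 10.97 and 11.73 at stage 13, and in *myb21-5 myb24-5* 12.20, 12.11 and 12.31 in buds and 12.98 and 12.73 at stage 13. Every mutant array was above every wild-type bud. At stage 13 *arf6-2 arf8-3* differed from *myb21-5 myb24-5* by −1.40 ± 0.37 (limma, adjusted p = 0.0227), and at stage 12 the difference of −0.92 ± 0.33 was not called (adjusted p = 0.122).

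*GSTU20*, a glutathione S-transferase, read 10.59, 10.16 and 10.38 in wild-type buds and 9.35, 9.27 and 9.14 in open flowers. It lay between 11.94 and 12.25 in *arf6-2 arf8-3*, and in *myb21-5 myb24-5* it read 11.47, 11.19 and 11.01 in buds and 10.64 and 11.09 at stage 13. At stage 13 it was 2.43-fold higher in *arf6-2 arf8-3* (1.28 ± 0.17; limma, adjusted p = 0.000137), and a probe set without a name was the other member called higher there (1.21 ± 0.25; adjusted p = 0.0043). *CB5-C*, a cytochrome b5, read 8.72, 7.84 and 8.97 in wild-type buds and between 9.18 and 10.63 on the mutant arrays used. *ZW9*, a protein with a meprin and TRAF homology domain, read 6.28, 5.52 and 7.0 in wild-type buds and had means of 7.68 and then 8.54 in *arf6-2 arf8-3* and of 8.37 and then 9.84 in *myb21-5 myb24-5*. *AKN2*, an adenylylsulfate kinase of sulfate assimilation, matched wild-type buds (8.70, 8.06 and 8.75) in *arf6-2 arf8-3* buds (8.84, 7.87 and 8.89) and was higher in *myb21-5 myb24-5* buds (9.83, 9.64 and 10.15), a difference between the mutants of −1.34 ± 0.28 (adjusted p = 0.00809).

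**Figure D3:**
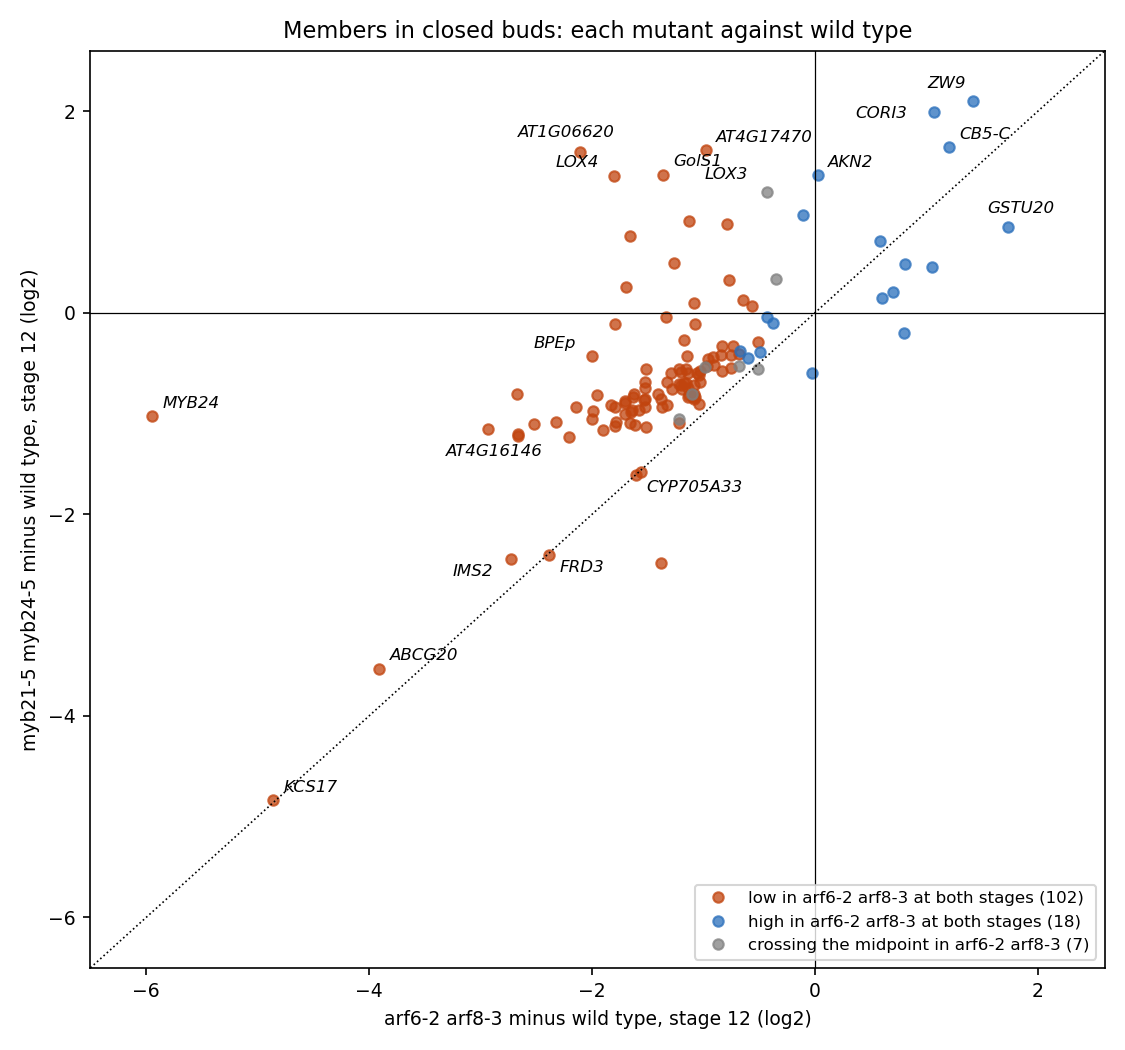
Stage 12 mean of each member in *arf6-2 arf8-3* (x axis) and *myb21-5 myb24-5* (y axis), as the log2 difference from the wild-type stage 12 mean (n = 3 arrays per group), coloured by where the member lay in *arf6-2 arf8-3*; the dotted line marks equal differences. Most points lie left of 0 and above the line, *KCS17*, *ABCG20*, *IMS2* and *FRD3* lie low on the line, and *CORI3*, *ZW9*, *CB5-C* and *GSTU20* are above 0 in both mutants.

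Compared with wild-type buds, 85 members were called lower in *arf6-2 arf8-3* (limma; adjusted p below 0.05 and a difference of 2-fold or more), beside a background of 3.03% of all probe sets, and 4 were called higher (background 1.54%). In *myb21-5 myb24-5* buds 12 were called lower (background 1.05%) and 9 higher (0.382%). These comparisons share the wild-type bud arrays with the choice of members, so the counts describe the members and test nothing. The median difference from wild-type buds was −1.19 in *arf6-2 arf8-3* and −0.68 in *myb21-5 myb24-5*. All 3 mutant arrays lay below all 3 wild-type arrays for 107 members in *arf6-2 arf8-3* (11.4% of all probe sets) and for 70 in *myb21-5 myb24-5* (9.38%), and above them for 7 (12.8%) and 18 (7.64%). Of the 335 other probe sets that met the wild-type condition, 39 were called lower in *arf6-2 arf8-3* buds and 3 in *myb21-5 myb24-5* buds, with medians of −0.21 and 0.28. The 135 that fell at least 2-fold in all 3 genotypes had medians of 0.12 and 0.59 in buds, and 1 and 0 of them were called lower.

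At stage 13, against open wild-type flowers, 17 members were called higher in *arf6-2 arf8-3* (background 2.75%) and 6 lower (3.72%), and 51 were called higher in *myb21-5 myb24-5* (2.0%) and 0 lower (2.49%). In wild type 121 of the 127 were called lower at stage 13 than at stage 12, beside 1.76% of all probe sets. *ZW9*, *PLIM2c* and *AT1G24620* were among the members not called. The choice of members used the wild-type arrays of both stages, and nothing is read from these counts.

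The choice of members treated both mutants alike and did not set the sign of the difference between them. It used the same mutant arrays, however, so the following counts describe the members and test nothing. At stage 12, 20 members were called lower in *arf6-2 arf8-3* than in *myb21-5 myb24-5* (15.7%, beside a background of 1.57%) and 0 higher (background 1.02%). With no threshold, 115 of the 127 had the lower mean in *arf6-2 arf8-3*, with a median difference of −0.54. At stage 13, 30 were called lower (23.6%, background 2.8%) and 2 higher (background 1.64%), with a median of −0.75, and all 20 of stage 12 were among the 30. Of the 20, 14 were called below wild-type buds in *arf6-2 arf8-3* and 6 above them in *myb21-5 myb24-5*. The direction was not particular to the members. Of the 335 other probe sets that met the wild-type condition, 11.9% were called lower in *arf6-2 arf8-3* at stage 12 and 14.6% at stage 13, with medians of −0.44 and −0.12. With the array set aside included, 17 members were called at stage 12, beside 206 lower and 144 higher of all probe sets. That fit called 0 of the members and 0 of all 22746 probe sets at stage 13. At stage 13 the count of 32 called in either direction was 19 without replicate C of *myb21-5 myb24-5*, which leaves that group with 1 array.

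**Figure D4:**
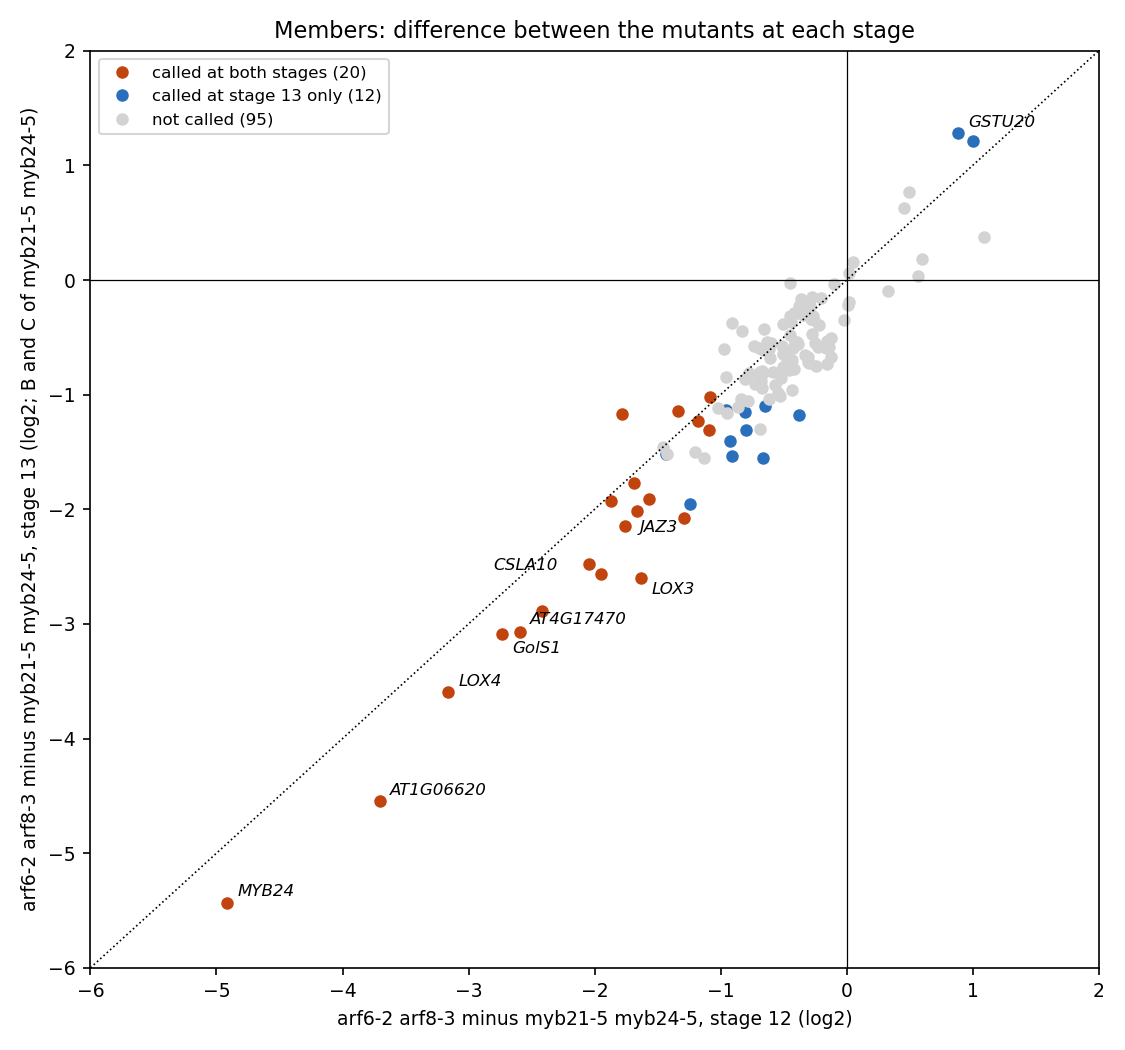
Difference between the mutants (*arf6-2 arf8-3* minus *myb21-5 myb24-5*, log2) of each member at stage 12 (x axis, n = 3 against 3) and stage 13 (y axis, n = 3 against 2), coloured by the stages at which limma called it; the dotted line marks equal differences. The 20 members called at both stages lie in the lower left, led by *MYB24*, *AT1G06620* and *LOX4*, and *GSTU20* is one of 2 called at stage 13 in the upper right.

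From stage 12 to stage 13, 87 members had a change above 0 in *myb21-5 myb24-5* and 62 in *arf6-2 arf8-3*, and the change was 0.4 or more in 41 and 11 of them. Over all probe sets the median changes were 0.03 and −0.01. The choice of members used these changes, so nothing is read from the counts. The largest upward changes among named members in *myb21-5 myb24-5* were those of *ZW9* (1.47), *AT1G75160* (1.34), *AT4G03620* (0.94), *AT5G35090* (0.92) and *NRAMP5* (0.83), a metal transporter of the NRAMP family. In *arf6-2 arf8-3* they were those of *AT1G75160* (0.90), *ZW9* (0.86), *AT4G16146* (0.60), *NRAMP5* (0.54) and *AT4G03620* (0.51), so that *ZW9*, *AT1G75160*, *NRAMP5* and *AT4G03620* were in both sets. *AT1G75160* read 6.65, 5.90 and 7.90 in *arf6-2 arf8-3* buds and 7.62, 7.85 and 7.69 at stage 13, and the stages overlapped. In *myb21-5 myb24-5* it read 6.81, 6.80 and 7.32 in buds and 8.20 and 8.44 at stage 13, with no overlap. The difference between the mutants in the change from stage 12 to 13 was called for 0 members (limma, background 0.00879%), with 6 at an unadjusted p under 0.05, and by 0 in every other limma fit. The choice of members bounded both changes from below.

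Other gene lists held few members. *EXPA24*, an expansin that loosens cell walls, was 1 of the 27 expansin and xyloglucan hydrolase probe sets named by the platform table. It read 10.61, 9.92 and 10.05 in wild-type buds and 8.27, 7.73 and 6.15 in open flowers, and lay between 6.29 and 8.31 in *arf6-2 arf8-3* and between 8.56 and 9.15 in *myb21-5 myb24-5*. It came close to both mutant bounds, with changes of −0.38 in each. The auxin, flavonoid, photosynthesis, cell cycle and nectary lists held 0 members, but had only 17, 11, 10, 6 and 8 measured probe sets. The wild-type condition was met by 1 probe set of the nectary list and by 0 of the others. Among all 22746 probe sets 127 were members, so nothing is read from these counts. *AT4G17690*, a putative peroxidase with the second largest wild-type fall (9.37-fold), read 10.44, 9.59 and 9.96 in wild-type buds and 7.55, 7.14 and 5.62 in open flowers, and had means of 7.47 and 7.13 in *arf6-2 arf8-3* and 8.90 and 8.64 in *myb21-5 myb24-5*. In the RefSeq gene order 4 pairs of members were immediate neighbours, *LOX3* with *AT1G17430*, *AT2G19000* with *AT2G19010*, *AT3G10460* with *AT3G10470*, and the esterase family genes *AT3G55180* and *AT3G55190*.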

How the data were processed

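Each array measured RNA of whole flowers. The labels name both Trizol and RNeasy kits for extraction, without saying which array had which. The file deposited by the authors holds 1 log2 value per probe set and array, from RMA (background correction, normalisation and summary of the probes) without a baseline. Of 22810 probe sets, 64 controls were left out. Members and gene lists were chosen with earlier results of these data known. Groups came from the labels. With limma 3.58.1 (R 4.3.3), group means were fitted on 17 arrays, leaving out *myb21-5 myb24-5* stage 13 replicate A, and p-values (two-sided) were adjusted over 22746 probe sets by the Benjamini-Hochberg method. A call needed an adjusted p under 0.05 and a 2-fold difference. The fit was tested on simulated data. An array gives no read depth, and the number of arrays limits the precision.

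Named genes were members with 1 gene: the 12 largest wild-type falls, those nearest each bound, up to 5 per list, and the 5 most extreme in each comparison between the mutants, against wild-type buds and between stages. No sequences were at hand, so promoter motifs were not run, and no tests of the lists as sets were made. Same-lettered replicates deviated together in their correlations over probe sets (0.43 to 0.68 for the mutants at stage 12), with an exception for *arf6-2 arf8-3* and wild-type buds (0.64, −0.02 and 0.20).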

Additional observations from a re-analysis of the deposited data

Results flagged for a closer look

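In 2 members every *arf6-2 arf8-3* array fell from stage 12 to stage 13 and every *myb21-5 myb24-5* array used rose, without overlap between the stages. *GASA4* changed by −0.36 in *arf6-2 arf8-3* and by 0.43 in *myb21-5 myb24-5*, and *LOX3* by −0.32 and 0.65. In limma's test of the difference between these changes neither was called (adjusted p = 0.299 and 0.568). The share of all probe sets with such opposite changes was not computed, so nothing is read from the count of 2.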

How the results depend on the processing

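The members numbered 127 by the rule used, 84 with a mutant bound of −0.2, 171 with −0.6 and 41 with a wild-type bound of −1.5. Quantile normalisation, median centring, a minimum mean of 6, no condition on overlap and the array set aside gave 110 to 136, and leaving out 1 array gave 111 to 173. In buds, 89 members were called in *arf6-2 arf8-3* against wild type, 58 when only the compared arrays were fitted, and 59 to 91 without 1 array, the lowest without *arf6-2 arf8-3* replicate B. With all 18 arrays, 0 rather than 32 members were called between the mutants at stage 13, where that fit called 0 of all 22746 probe sets. In *arf6-2 arf8-3* against wild type it called 81 rather than 89 members in buds and 22 rather than 23 at stage 13. Between the stages of wild type it called 103 rather than 121. It called 13 rather than 21 members in *myb21-5 myb24-5* buds, and 31 rather than 51 in *myb21-5 myb24-5* against wild type at stage 13. Without 1 array the last of these ranged from 29 to 48 and the difference between the mutants at stage 13 from 19 to 31, both lowest without *myb21-5 myb24-5* replicate C. The methods' t-test, adjusted over all probe sets, called 9 and 0 members in the mutants against wild-type buds. It called 2 and 5 between the mutants at stages 12 and 13, 20 and 9 against open wild-type flowers, and 15 in wild type between stages. Over all 22746 probe sets its calls (lower and higher) against wild-type buds were 130 and 33 in *arf6-2 arf8-3* and 13 and 2 in *myb21-5 myb24-5*. Between the mutants they were 43 and 7 at stage 12 and 88 and 20 at stage 13. Against open wild-type flowers they were 634 and 413 and then 70 and 69, and in wild type 58 and 91. The t-test was not run for the difference of stage changes. The cause of these shifts was not tested. With the replicate block, 92 and 23 members were called against wild-type buds, 23 and 43 between the mutants, 24 and 59 against open flowers, 125 in wild type and 0 for the difference of stage changes, and no count moved by over 1.5 times. Of 456 repeats of 31 results of single genes, 398 stayed on the same side of the threshold, 57 lost the call, 1 gained it and 0 reversed. With 2 arrays for *myb21-5 myb24-5* at stage 13, the weakest group, small differences there could not be called. Other dividing levels than the midpoint, chosen after seeing the data, gave 90 (at 0.4) and 104 (at 0.6) rather than 102 members low in *arf6-2 arf8-3* at both stages, and 81 and 48 rather than 62 high in *myb21-5 myb24-5*.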
